A study of Mus musculus with 17 samples.

Results

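The long intergenic noncoding RNAs (lincRNAs) that mouse mammary gland macrophages expressed above a set level were followed through sorted, mutant and cultured macrophages. A lincRNA was included when it reached at least 5 CPM, reads of a gene scaled to a common library total, in both libraries of CXCR4-positive macrophages. The rule kept 65 of the 434 lincRNAs among 17130 genes listed for that sort, or 14.98%. The same threshold in the same libraries kept 9.35% of 738 antisense RNAs and 64.6% of 12907 protein-coding genes. The members were thus chosen by their CPM in the CXCR4-positive libraries, and those levels and their contrast with CXCR4-negative cells are given as description with no test.

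LincRNAs are transcribed and often spliced like messenger RNAs but are not known to be translated into long proteins, and many stay in the nucleus. Malat1 gathers in nuclear speckles, Neat1 is the scaffold of paraspeckles, and Xist coats the inactive X chromosome of female cells. Others act as precursors: Mir17hg and Mir155hg carry microRNA hairpins, and Snhg12 and Snhg15 carry small nucleolar RNAs (snoRNAs) that are released from introns. In macrophages, miR-155 is a product of inflammatory signalling, and Morrbid is a lincRNA of myeloid cells that acts on Bcl2l11, a gene that promotes cell death.

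RNA of 17 libraries from the mammary glands of virgin mice was sequenced after removal of ribosomal RNA, in 12 groups of 1 or 2 libraries, around the signal from the chemokine CXCL12 to its receptor CXCR4. Freshly sorted F4/80 and CD11b macrophages came from LysmCre+ controls and LysmCre+, Cxcr4fl/fl mice, and from K8Cre+ controls and K8Cre+, Cxcl12fl/fl mice, with 2 libraries a group, so that all of these mice carried a Cre. LysM-Cre acts in myeloid cells, whereas K8-Cre acts in luminal epithelium, so the second cross removes the ligand from epithelial cells and not from the macrophages. Wild-type macrophages were sorted into CXCR4-positive cells, with 2 libraries, and CXCR4-negative cells, with 1. Wild-type macrophages were also cultured in RPMI with serum and left untreated, or given recombinant CXCL12, the AKT inhibitor GSK690693 or both, with 1 library each and with no dose or time given in the labels. P4 basal cells, a Lin-CD24+CD29high fraction enriched for stem cells, had 1 library from K8Cre+ controls and 1 from K8Cre+, Cxcl12fl/fl mice. Nothing in the labels says whether repeats came from separate mice, so the spread between these libraries may be technical. A p-value here rests mostly on the spread of genes of like level, not on that of the gene itself.

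The sequences that 2 of the members give rise to are shown first, because Mir155hg and Mir17hg are known by their products. The mature microRNAs below are from RefSeq (GRCm38.p6), 5′ to 3′, with the seed, bases 2 to 8, in capitals. The libraries measured the host transcripts and not these mature microRNAs.
miR-17-5p (chr14:115043684-115043706, + strand): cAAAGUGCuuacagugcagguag
miR-20a-5p (chr14:115044183-115044205, + strand): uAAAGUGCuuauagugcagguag
miR-18a-5p (chr14:115043867-115043889, + strand): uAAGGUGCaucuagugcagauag
miR-19a-3p (chr14:115044048-115044070, + strand): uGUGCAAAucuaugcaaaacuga
miR-19b-3p (chr14:115044358-115044380, + strand): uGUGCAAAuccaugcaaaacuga
miR-92a-3p (chr14:115044476-115044496, + strand): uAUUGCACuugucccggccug
miR-155-5p (chr16:84714143-84714165, + strand): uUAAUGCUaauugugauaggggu
The miR-17-5p and miR-20a-5p of the Mir17hg cluster share the seed AAAGUGC, and miR-19a-3p and miR-19b-3p share GUGCAAA. The seed UAAUGCU of miR-155-5p is in none of the 6 Mir17hg products printed.

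The members lay on 20 chromosomes. Positions of 56 members matched GENCODE M21 on GRCm38, and 60 had an identifier there. Their median span was 8197 bases and the median of their longest transcripts 2149.5 bases, and for 16 the annotation held single-exon transcripts. A protein-coding gene lay within 5 kb of 36 members and overlapped 12 of them, although the class is called intergenic. Whether the counting used strand is not given in the sources used here, so reads of an overlapping coding gene cannot be told apart from those of the member. The class is that of the deposited table: GENCODE M21 lists Gm21860, Gm47283 and Gm10134 as protein-coding and Snhg15 as a processed transcript.

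Depth, estimated from the value of 1 read, was 8.60 to 37.2 M reads in the 8 libraries of the knockout experiments, 23.2 to 28.8 M in the sort by CXCR4 and 14.3 to 29.0 M in culture. The 2 repeats of the knockout experiments stood apart: small noncoding RNAs took 2.96% to 6.73% of the reads in repeat 1 and 15.2% to 19.3% in repeat 2. All 8 macrophage markers had at least 1 CPM in each library sorted by CXCR4. Their sum, which includes Lyz2, was 13442 and 4656 CPM in the LysM-Cre controls and 3802 and 2203 CPM in the Cxcr4 knockouts. The sum does not stand for all 8: 6 of them had a log2 change above 0, and the median was 0.19. Lyz2, at a log2 change of -6.47, was the 1 marker that passed. Cxcr4 itself was at 819 and 318 CPM in the LysM-Cre controls and at 232 and 140 CPM in the Cxcr4 knockouts. Those groups did not overlap, but the log2 change of -1.49 (SE 0.49) did not pass in limma over all genes (adjusted p = 1). In the sort, Cxcr4 RNA did not follow the labels: it was at 632 and 875 CPM in the libraries labelled CXCR4-positive and at 772 CPM in the one labelled CXCR4-negative, so positive and negative below are the labels of the sort and not RNA levels.

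Just inside the rule stood 9330175E14Rik, at 10.9 and 5.07 CPM in CXCR4-positive libraries 1 and 2, 4930562F07Rik at 5.11 and 12.4 CPM, and Gm42047 at 16.8 and 5.18 CPM. Just outside stood 2610037D02Rik at 16.6 and 4.96 CPM, 6720427I07Rik at 15.3 and 4.82 CPM, and Gm37170 at 6.74 and 4.71 CPM. Each of these 3 missed only in library 2. That library had lower values for most members: 53 of 65 were higher in library 1, with a median log2 ratio of 0.48. At a threshold of 10 CPM, 38 lincRNAs would have been kept.

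A few nuclear RNAs made up most of the members' reads. The members took 1.35% to 3.49% of the reads of each macrophage library, and Malat1, Neat1 and Xist together held 80.5% to 91.5% of that. Per kilobase of the longest annotated transcript, Malat1 stood at 1725 CPM in the CXCR4-positive libraries, Gm47283 at 434, Gm21860 at 309, Xist at 244, Neat1 at 128, Lncpint at 97.2 and Gm36161 at 94.6. The per-kilobase values of Gm47283 and Gm21860 rest on short annotated transcripts, of 887 and 309 bases. Lncpint is a conserved lincRNA linked to p53.

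Malat1 (chr19:5795690-5802672, GRCm38, - strand) was at 17047 and 7050 CPM in CXCR4-positive libraries 1 and 2, with 11678 CPM in CXCR4-negative cells. In the knockout experiments it ranged from 10793 to 21907 CPM with a median of 12955, and in culture from 10081 to 14310. Neat1 (chr19:5824708-5845478), which lies 22036 bases from Malat1, counted between their nearest ends, on the same strand, was at 4075 and 1262 CPM in positive cells, 5804 CPM in negative cells and 1511 to 4203 CPM in the knockout experiments. The CXCR4-positive libraries thus differed from each other in both genes by more than the negative library differed from positive library 1. Xist (chrX:103460366-103483254) was high in every macrophage library, at 3035 to 5734 CPM in the sort, 3484 to 7331 CPM in the knockout experiments and 4988 to 5941 CPM in culture.

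Across the 8 knockout-experiment libraries the spread was smallest, among members with a median above 5 CPM, for Gm36161, with an SD of 0.28 on the log2(CPM + 1) scale, followed by Malat1 at 0.33, Xist at 0.37, Neat1 at 0.42 and Lncpint at 0.56. Gm36161 (chr13:120010390-120018931), a gene with 4 exons and no known role, kept to 128 to 231 CPM in those libraries, and to 150, 136 and 155 CPM in the positive and negative libraries of the sort. In culture it was at 25.0, 32.2, 18.2 and 29.0 CPM in the untreated, CXCL12, AKT inhibitor and combined libraries, all below its lowest fresh value. The largest spreads were those of Gm7292 at 2.55, Gm48283 at 2.30 and Gm21860 at 2.25. The plot of all members by library shows these spreads beside the levels.

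**Figure D1:**
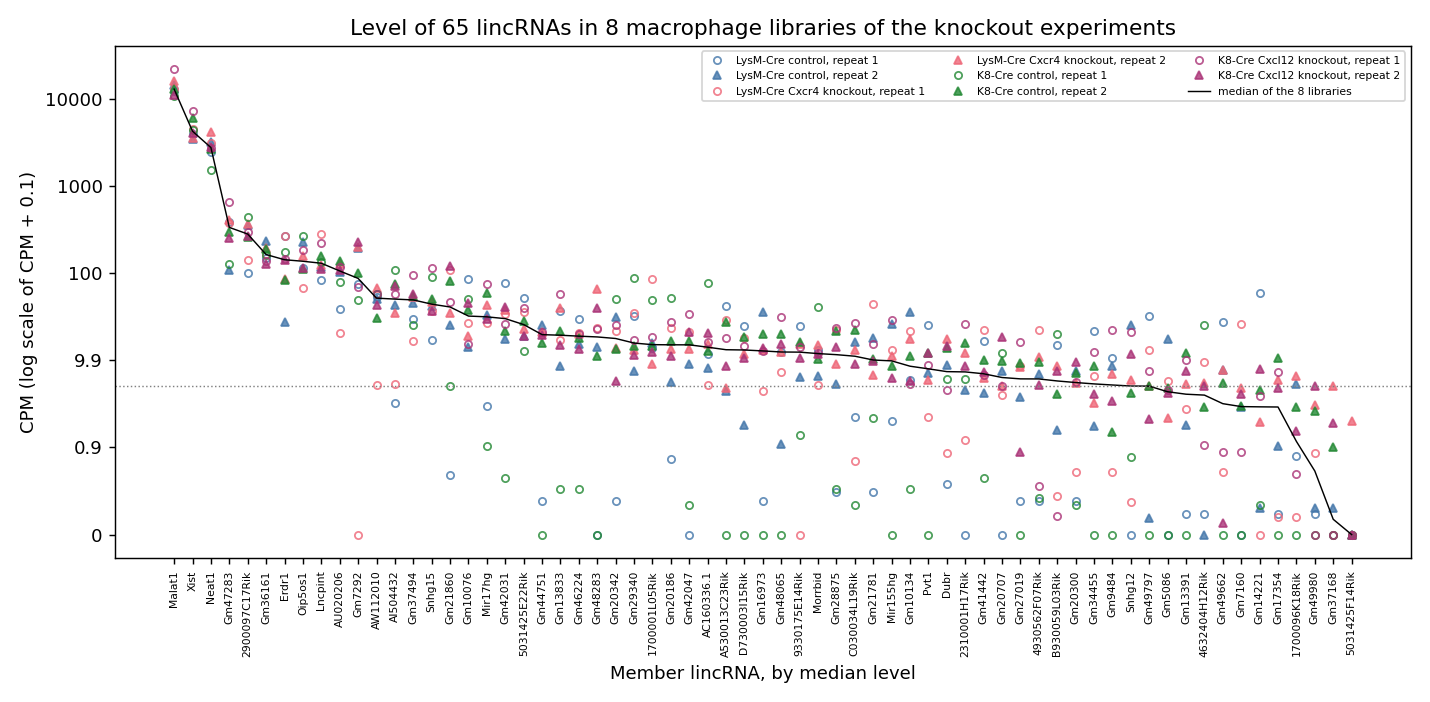
Level of each of the 65 members (x axis, by median) in the 8 macrophage libraries of the knockout experiments, in CPM on a log scale of CPM + 0.1; open circles are repeat 1, filled triangles repeat 2, colours the 4 groups, the line the median and the dotted line 5 CPM. Malat1, Xist and Neat1 stay between 1511 and 21907 CPM in all 8, while many lower members have at least 1 repeat 1 library near 0.

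Detection differed between libraries. In the knockout experiments 19 of 65 members (29.2%) had at least 5 CPM in all 8 libraries, beside 56.3% of the 8332 protein-coding genes that met the same rule and are listed in both tables. Among those under 60 CPM in the positive libraries the shares were 17.3% of 52 members and 37.0% of 5487 coding genes, whose median levels in the positive libraries still differed, at 12.6 and 20.3 CPM. At least 5 CPM in all 4 libraries of repeat 2 was reached by 42 members, and in all 4 of repeat 1 by 19. Lower detection in repeat 1 was not particular to the members. Of all genes listed, 13.8% to 37.1% were at 0 in the libraries of repeat 1 and 8.23% to 19.6% in those of repeat 2. The K8-Cre control of repeat 1 had the fewest, with 28 members at 5 CPM and 21 of 65 at 0, beside 37.1% of all genes at 0. Its depth was also the lowest, with 43.0 reads at 5 CPM, and the part of depth in its low count was not tested. LysM-Cre control 1 had 36 members at 5 CPM and 8 of 65 at 0, beside 30.6% of all genes at 0. Both of the lowest libraries were thus controls of repeat 1. The knockouts of repeat 1 had 45 and 52, and the 4 libraries of repeat 2 had 48 to 56. In 0 of the 8 libraries did 5031425F14Rik or Gm49980 reach 5 CPM, although both had passed the rule in the sort.

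**Figure D2:**
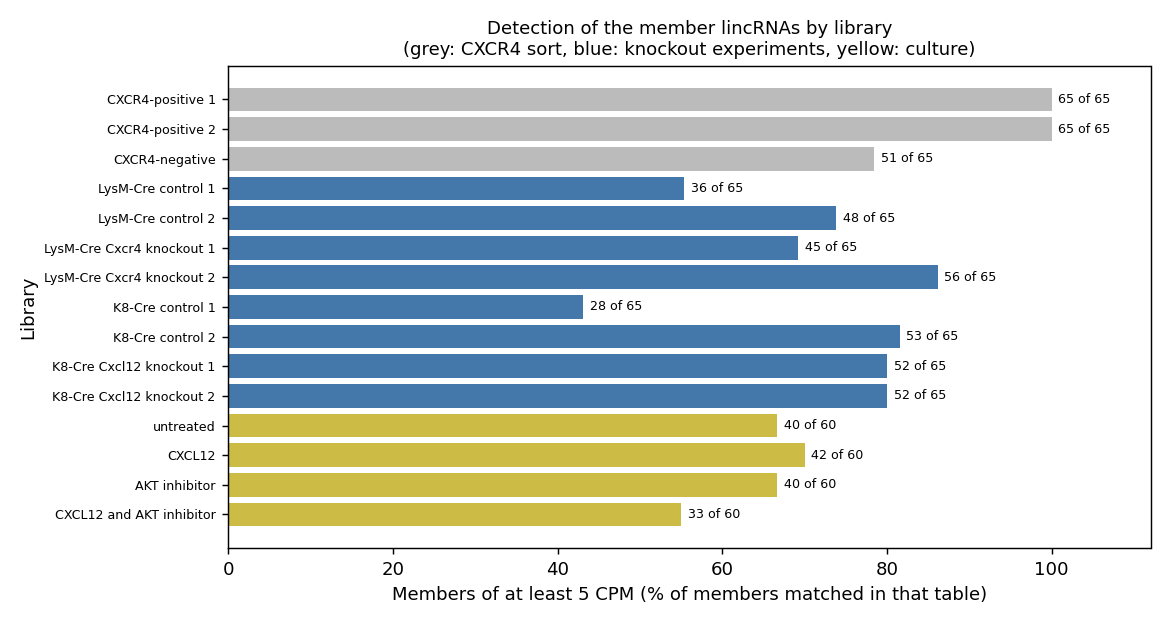
Share of the members with at least 5 CPM (x axis, percent) in each of 15 macrophage libraries (y axis), with counts beside the bars. The CXCR4-positive bars are full by the rule, and the shortest bar is K8-Cre control 1, with 28 of 65.

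2 members are assigned to chromosome Y, Gm47283 (chrY:90784738-90816465) and Gm21860 (chrY:90752427-90755467), and 1, Erdr1 (chrX:170009659-170019281), to X. The Y positions lie in the pseudoautosomal region, which X and Y share, and the genes there have near-identical copies, so how reads were split among them is uncertain. Xist was high in all libraries, and Uty, a Y gene outside that region, was at 0 to 1.60 CPM in the knockout experiments. Gm21860 was at 128 and 62.9 CPM in positive cells but 1.67 CPM in negative cells, whereas Erdr1 was at 145, 85.5 and 146 CPM. Summed over both genes the values were 274, 148 and 148 CPM, so the sum did not separate positive library 2 from the negative one. Gm47283 was at 489 and 282 CPM in positive cells and 284 CPM in negative cells, so positive library 2 and the negative library were also close there.

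The 2 knockouts asked whether losing the receptor in myeloid cells, or the ligand in luminal cells, changes macrophage RNA. 64 members could be tested, among 17275 genes, and 5031425F14Rik could not because it was too low. No member passed an adjusted p of 0.05 in limma in either knockout. In the Cxcr4 knockout 1 gene in all passed (0.00579%), Lyz2, the locus that carries the LysM-Cre insertion. Its log2 change was -6.47 (SE 0.40), although both groups are described as carrying the Cre. For the members, loss of Cxcr4 and this difference at Lyz2 cannot be told apart. At an unadjusted p under 0.05, 2 members were higher (3.12%, beside 2.16% of all genes) and 1 was lower (1.56%, beside 1.16%). In the Cxcl12 knockout 0 genes passed (0.0%), and 2 members were higher at the unadjusted level (3.12%, beside 2.40% of all genes) and 0 lower (beside 0.44%).

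The median log2 change of the members was 0.42 in the Cxcr4 knockout, beside 0.14 over all genes, and 40 of 64 were above 0 (62.5%, beside 57.8%). Groups did not overlap for 12 members on the higher side (18.8%, beside 16.7%) and 2 on the lower (3.12%, beside 8.76%). In the Cxcl12 knockout the median was 0.77, beside 0.36, and 45 of 64 members were above 0 (70.3%, beside 64.1%). There, groups did not overlap for 8 members on the higher side (12.5%, beside 20.4%) and 2 on the lower (3.12%, beside 8.03%). The Cxcl12 median rested on 1 library. Without K8-Cre control 1 it was -0.09, beside 0.03 over all genes, and without K8-Cre control 2 it was 1.55, beside 0.92. The part that the low detection in K8-Cre control 1 has in that median was not tested. Markers of other cells also differed in level between these groups, with 0 of their genes passing. The 8 B cell markers had a median log2 change of -1.98 in the Cxcr4 knockout, and summed to 828 and 384 CPM in controls and 343 and 289 CPM in knockouts. In the Cxcl12 knockout the 6 endothelial markers had a median of 1.39, from sums of 5.24 and 178 CPM in controls and 115 and 177 CPM in knockouts, with 3 of the 6 at 0 in K8-Cre control 1. The 8 T and NK cell markers there had a median of 1.14, from 78.4 and 91.9 CPM in controls and 155 and 116 CPM in knockouts. The part of these cells in the members' medians was not tested. The difference between the knockouts passed for 0 members and 1 gene (0.00579%), with 0 members higher (beside 0.955%) and 1 lower (beside 1.52%) at the unadjusted level, and 29 of 64 above 0 (45.3%, beside 43.7%). The gene was again Lyz2. Among members the difference was 4.52 (SE 2.62) for 4632404H12Rik, -4.33 (SE 2.68) for Gm9484 and -3.95 (SE 1.33) for Gm7292, each with an adjusted p of 0.999872 in limma.

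Gm48283 (chr14:19866980-19873455) overlaps Gng2, a G protein gamma subunit gene on the opposite strand, and had the highest log2 change in both knockouts. It was close to 0 and at 13.9 CPM in LysM-Cre controls 1 and 2, and at 23.4 and 66.2 CPM in the Cxcr4 knockouts. In K8-Cre controls 1 and 2 it was at 0 and 11.2 CPM, and in the Cxcl12 knockouts at 22.9 and 39.6 CPM. All 4 knockout libraries thus stood above all 4 controls, a separation whose share over all genes was not counted. The values at or close to 0 were in LysM-Cre control 1 and K8-Cre control 1. Those libraries had the most genes at 0 in the knockout experiments, 30.6% and 37.1% of all genes. The log2 changes were 3.39 (SE 1.60, n = 2 against 2, adjusted p = 1 in limma) and 3.16 (SE 1.60, adjusted p = 1). Gng2 was at 85.2 and 111 CPM in the LysM-Cre controls and at 2.13 and 75.8 CPM in the Cxcr4 knockouts, a different pattern.

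Gm21860 was at 0.38 and 25.5 CPM in the LysM-Cre controls and 109 and 35.1 CPM in the Cxcr4 knockouts, which did not overlap. Its log2 change was 3.38 (SE 1.11, adjusted p = 1 in limma), made of 6.31 in repeat 1 and 0.45 in repeat 2. Summed with Erdr1, the values were 267 and 53.2 CPM in the controls and 379 and 121 CPM in the knockouts, and those groups overlapped. With LysM-Cre control 2 left out, the log2 change of Gm21860 was 5.51.

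Gm7292 (chr6:117716342-117718868), a single-exon transcript 122312 bases from the nearest coding gene, Zfp637, had the lowest change in the Cxcr4 knockout. It was at 74.3 and 196 CPM in the controls and at 0 and 200.2 CPM in the knockouts. Only Cxcr4 knockout 1 was low, and the groups overlapped. Its log2 change of -3.10 (SE 0.94, adjusted p = 1 in limma) was -6.23 in repeat 1 and 0.03 in repeat 2. Without that library the log2 change was 0.72, whereas it was -3.80 without LysM-Cre control 1 and -6.93 without Cxcr4 knockout 2. In the K8-Cre libraries it was at 48.7 and 99.6 CPM in controls and 69.9 and 227 CPM in knockouts.

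Among the other members at the ends of the Cxcr4 comparison, 4632404H12Rik was at 0.07 and 0 CPM in controls and 9.38 and 5.398 CPM in knockouts. It was alone among the 5 highest in having log2 differences above 2.5 in both repeats, 3.28 and 2.68, yet its change of 2.98 had an SE of 1.86 (adjusted p = 1 in limma). In the K8-Cre pair it was at 25.1 and 2.82 CPM in controls and 0.98 and 4.95 CPM in knockouts, a log2 change of -1.54. Gm7160 and Gm20186 followed at 2.66 and 2.52. On the lower side were Gm14221 at -2.26, Gm49662 at -2.16, 9330175E14Rik at -1.78 and Pvt1 at -1.66. Pvt1, the neighbour of Myc at 47612 bases, was at 25.4 and 7.05 CPM in controls and 2.14 and 5.79 CPM in knockouts, which did not overlap. Gm14221 was at 58.7 and 0.10 CPM in controls and 0 and 1.86 CPM in knockouts. Without LysM-Cre control 1 its log2 change was 0.62, and without Cxcr4 knockout 1 that of 9330175E14Rik was 0.24.

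In the Cxcl12 comparison Gm9484, Gm42047, Gm42031 and Gm13833 followed Gm48283, with log2 changes of 2.68, 2.66, 2.62 and 2.53. Gm42031 (chr8:85125872-85132289) was at 0.35 and 21.4 CPM in controls and at 26.3 and 40.6 CPM in knockouts. Gm42047 was at 0.12 and 16.4 CPM in controls and 33.9 and 21.3 CPM in knockouts. Each of these 4 was at 0 or under 1 CPM in K8-Cre control 1. The lowest were B930059L03Rik at -1.77, 4632404H12Rik at -1.54, Gm29340 at -1.33, Gm20342 at -1.02 and Gm49662 at -0.89. The last of these was at 0 and 5.37 CPM in controls and 0.78 and 0.04 CPM in knockouts, and without K8-Cre control 2 its change was 0.44.

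Compared within each repeat, 36 of the 64 members tested had opposite signs in the 2 repeats of the Cxcr4 knockout (56.2%, beside 43.6% of all genes) and 42 in those of the Cxcl12 knockout (65.6%, beside 47.6%). The SD of the log2 differences over members was 2.65 in repeat 1 and 1.11 in repeat 2 for Cxcr4, and 2.37 and 0.79 for Cxcl12. The repeat medians were 0.13 and 0.40 for Cxcr4, and 1.87 and -0.23 for Cxcl12. In all 4 differences 5 members were above 0 (7.81%, beside 8.47%), namely Gm48283, Gm21860, Gm42047, Gm7160 and Neat1, and 0 were below (beside 2.85%). The share above 0 was thus near that of all genes. Neat1 was at 2437 and 3240 CPM in LysM-Cre controls, 3117 and 4203 in Cxcr4 knockouts, 1511 and 2666 in K8-Cre controls and 2721 and 2804 in Cxcl12 knockouts. Its differences by repeat were small, at 0.36 and 0.38 for Cxcr4 and 0.85 and 0.07 for Cxcl12, and its fitted changes of 0.37 and 0.46 each had an SE of 0.37 (adjusted p = 1 in limma).

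**Figure D3:**
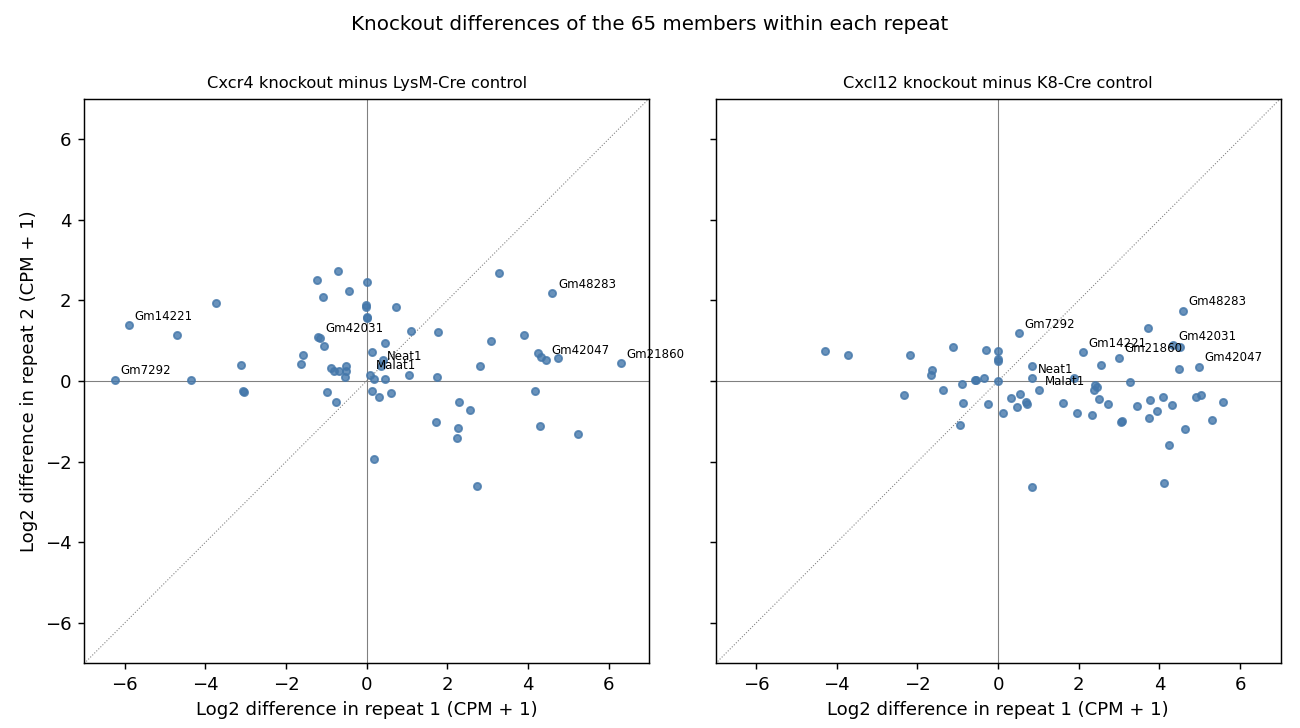
Log2 difference, knockout minus control on the log2(CPM + 1) scale, of each of the 65 members in repeat 1 (x axis) and repeat 2 (y axis), for the Cxcr4 knockout (left) and the Cxcl12 knockout (right); the dotted line marks equal differences. Points spread along the x axis, with SDs of 2.65 and 2.37, more than along the y axis, with SDs of 1.11 and 0.79.

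Mir155hg (chr16:84703167-84715245) was at 1.94 and 25.97 CPM in LysM-Cre controls, 13.0 and 11.0 CPM in Cxcr4 knockouts, 0 and 8.51 CPM in K8-Cre controls and 29.2 and 6.21 CPM in Cxcl12 knockouts. Mir17hg (chr14:115042879-115046727) was at 2.90 and 33.0 CPM, 26.5 and 42.9 CPM, 0.93 and 58.7 CPM, and 75.8 and 29.8 CPM in the same order. For both hosts knockout and control overlapped in both lines. Of the 29 small RNA host lncRNAs listed, 26 could be tested, and 0 passed in either knockout, with median changes of 0.27 and 0.30. The proteins that work with these RNAs gave the same count: 0 of 11 paraspeckle proteins, 0 of 14 nuclear speckle proteins, 0 of 12 Xist silencing proteins and 0 of 15 RNA decay factors passed in either knockout. At the unadjusted level, 1 paraspeckle and 2 Xist silencing proteins were lower in the Cxcr4 knockout (beside 1.16% of all genes), and 0 of these 4 lists' genes were higher (beside 2.16%).

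Snora61, which lies in Snhg12 (chr4:132308623-132311024), was at 113 to 410 CPM in the knockout experiments, where its host ranged from 0 to 25.2 CPM. In culture Snora61 was at 8.87 to 40.8 CPM and Snhg12 at 5.05 to 24.1 CPM. In culture the snoRNA was thus below its lowest fresh value. The host stayed between its lowest and highest fresh values, but its median was 15.4 CPM in culture and 4.97 CPM in the knockout experiments. The other snoRNAs there stayed at or below 19.7 CPM in the knockout experiments. Snora9, in Snhg15 (chr11:6525591-6528779), was at 0.98 to 31.6 CPM in the knockout experiments, beside 17.04 to 113 CPM for its host.

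The sort by CXCR4 compared 2 positive libraries with 1 negative one, and the positive libraries had chosen the members, so no test applies. Of 52 members with at least 10 CPM, 8 were at least 2-fold higher in both positive libraries (15.4%, beside 10.7% of all genes) and 3 at least 2-fold lower (5.77%, beside 14.0%). The rule favours members that are high in positive cells, so nothing is read from that balance. The members of at least 10 CPM had a median log2 difference of -0.00 and all such genes -0.23. In a sorted fraction, more cells of one kind and more RNA per cell cannot be told apart.

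Mir155hg was at 29.1 and 7.94 CPM in positive cells against 0.26 CPM in negative cells. Gm10134, within 680 bases of the glycosyltransferase gene Gbgt1, was at 32.4 and 25.0 CPM against 0.99 CPM, and Gbgt1 at 20.0 and 15.9 CPM against 0.17 CPM. Gm14221 (chr2:160568379-160619971) was at 22.5 and 18.5 CPM against 1.68 CPM. For all 3 both positive libraries were several times above the negative one. Gm27019 was at 15.1 and 10.9 CPM against 1.08 CPM, and Gm13391 at 26.3 and 15.6 CPM against 4.96 CPM. AU020206 (chr7:75769038-75782099) was at 183 and 149 CPM against 48.4 CPM. Gm29340 and the pseudoautosomal Gm21860 complete the 8.

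The 3 members lower in both positive libraries were Snhg15, at 31.5 and 20.7 CPM against 63.2 CPM, D730003I15Rik (chr1:191224454-191226140), at 17.2 and 10.4 CPM against 37.2 CPM, and 5031425E22Rik, at 15.5 and 13.8 CPM against 31.9 CPM. Their coding neighbours were not uniform. Myo1g, 4626 bases from Snhg15, was at 234 and 187 CPM against 530.2 CPM, and Kmt2e, 172 bases from 5031425E22Rik, at 158 and 106 CPM against 221 CPM. Atf3, a stress-induced transcription factor 6415 bases from D730003I15Rik, was at 624 and 506 CPM against 458 CPM. Other pairs, picked after their values were seen, were also mixed. Gm48065 was at 51.6 and 17.2 CPM against 8.92 CPM, and Prdm1, 69388 bases away, at 186 and 128 CPM against 32.4 CPM. Gm44751 was at 45.1 and 30.5 CPM against 22.2 CPM, and Ctsc, 590 bases away, at 1121 and 969 CPM against 489.8 CPM. AU020206 was higher in both positive libraries, while Akap13, 14429 bases from it, was at 704 and 644 CPM against 718 CPM.

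Markers of other cells differed between these libraries. The 6 eosinophil markers listed summed to 5.94 and 4.04 CPM in positive cells, where 1 and 3 of them were at 0, and to 242 CPM in negative cells, where none was at 0. The 8 dendritic cell markers summed to 287 and 206 CPM against 723 CPM, and the 8 macrophage markers to 10492 and 12812 CPM against 7186 CPM. The part of those cells in the lincRNA differences was not tested.

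**Figure D4:**
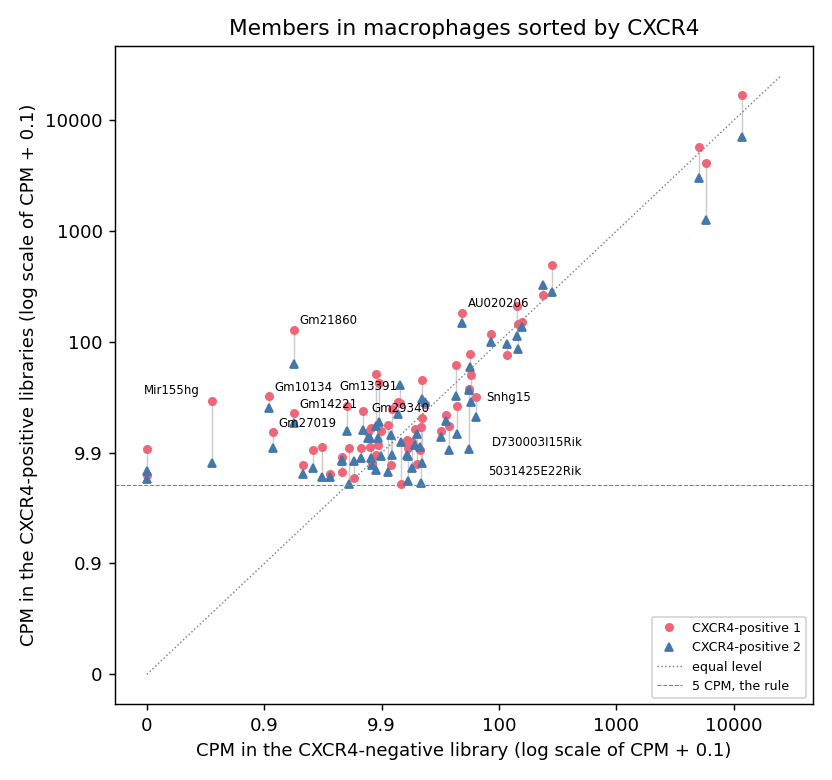
CPM of each member in the 2 CXCR4-positive libraries (y axis) against the CXCR4-negative library (x axis), both on a log scale of CPM + 0.1, with a grey line joining the 2 positive values of a member; named are the 11 members at least 2-fold apart in both. Mir155hg, Gm10134, Gm14221, Gm27019 and Gm21860 lie far above the line of equal levels, at 0.26 to 1.68 CPM in the negative library.

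In culture 60 members were found by name, and 25 of them had at least 5 CPM in all 4 libraries. By identifier 3 more were found under other names. 2900097C17Rik, now called Norad, an RNA that binds Pumilio proteins, was at 1038, 899, 652 and 874 CPM in the untreated, CXCL12, AKT inhibitor and combined libraries, and at 101 to 443 CPM in the knockout experiments. Gm37494 was at 92.2, 76.0, 115 and 8.73 CPM, low only in the combined library. 4930562F07Rik and Gm5086 were not followed in culture. With 1 library per treatment there is no replicate check, so the values compare these libraries and not the treatments.

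Of 39 members with at least 10 CPM in the untreated or the AKT inhibitor library, 10 were more than 2-fold higher with the inhibitor (25.6%, beside 19.9% of all genes) and 9 lower (23.1%, beside 16.4%). With CXCL12 alone, 7 of 39 were higher (17.9%, beside 12.0%) and 11 lower (28.2%, beside 14.3%). With both agents, 6 of 37 were higher (16.2%, beside 22.9%) and 13 lower (35.1%, beside 25.3%). These 3 comparisons share the untreated library. The inhibitor added to CXCL12 gave 8 higher (22.9%, beside 23.5%) and 11 lower (31.4%, beside 24.2%) of 35. CXCL12 added to the inhibitor gave 5 higher (14.7%, beside 21.4%) and 10 lower (29.4%, beside 27.5%) of 34.

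Few members were past 2-fold the same way in both pairs. With the AKT inhibitor, in the presence and in the absence of CXCL12, 1 of 31 members was higher (3.23%, beside 4.75% of all genes) and 3 were lower (9.68%, beside 5.75%). The member that was higher was Snhg12, at 5.05 CPM untreated, 10.5 CPM with CXCL12, 20.4 CPM with the inhibitor and 24.1 CPM with both. Those lower were Mir155hg, Gm14221 and Dubr. For CXCL12, with and without the inhibitor, 0 of 30 were higher (beside 2.45%) and 1 was lower (3.33%, beside 4.10%). That 1 was Pvt1, at 19.7, 8.54, 31.3 and 0.06 CPM in the same order.

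Mir155hg, the host of miR-155-5p printed above, was at 132 CPM untreated and 130.2 CPM with CXCL12, and at 24.2 CPM with the inhibitor and 16.7 CPM with both. The log2 ratios were -2.44 over untreated and -2.95 over CXCL12, and that of CXCL12 over untreated was -0.02. The other microRNA host did not share this pattern: Mir17hg was at 77.1, 79.8, 78.5 and 41.1 CPM. Gm14221 was at 13.3, 11.6, 0 and 1.25 CPM, and Dubr at 10.2, 11.8, 0.77 and 0.06 CPM.

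Among the nuclear RNAs Neat1 was at 2331, 2339, 4733 and 2402 CPM, so that only the library with the inhibitor alone was high, at a log2 ratio of 1.02. Malat1 was at 12995, 14310, 12382 and 10081 CPM and Xist at 5941, 5200, 5142 and 4988 CPM. Of the 11 paraspeckle proteins, 3 were more than 2-fold higher (beside 19.9% of all genes) and 0 lower (beside 16.4%) in the inhibitor library. Their median log2 ratio was 0.47, beside 0.06 over all genes and 0.41 for the 14 nuclear speckle proteins. With the inhibitor added to CXCL12, 0 paraspeckle proteins were higher (beside 23.5% of all genes) and 2 lower (beside 24.2%). With CXCL12 added to the inhibitor 0 were higher (beside 21.4%) and 4 lower (beside 27.5%). With both agents over untreated 1 was higher (beside 22.9%) and 2 were lower (beside 25.3%). Lncpint was at 166, 131, 156 and 120 CPM.

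The pseudoautosomal Gm47283 was at 1376 and 1516 CPM without the inhibitor and 3285 and 2856 CPM with it, and its log2 ratios were 1.26 and 0.91. Erdr1 was at 37.2, 183, 136 and 159 CPM and Gm21860 at 239, 225, 145 and 236 CPM. Only the untreated library was low in Erdr1. Their sum was 276, 409, 281 and 395 CPM, a narrower range than that of Erdr1.

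Other named members varied in several ways between the 4 libraries. AU020206 was at 22.6, 44.9, 43.8 and 1.56 CPM, a log2 ratio of -4.73 for both agents over the inhibitor. AW112010, an RNA of activated macrophages with a translated reading frame, was at 23.3, 9.57, 0.07 and 5.30 CPM. Morrbid (chr2:128178319-128502765 in the sort table) was at 93.9, 53.3, 57.7 and 31.4 CPM, and its target Bcl2l11 at 727, 714, 526 and 828 CPM. In those values the lowest Morrbid and the highest Bcl2l11 were in the combined library. The other ends did not match: Morrbid was highest in the untreated library, and Bcl2l11 lowest in the inhibitor library. Gm27019, at 4.92, 16.5, 28.6 and 0 CPM, and Gm34455, at 3.17, 22.0, 15.8 and 0.06 CPM, were also lowest with both agents, whereas Gm48283 was highest there, at 16.0 CPM against 0, 0 and 0.01 CPM. B930059L03Rik was low only when untreated, at 0.90 CPM against 11.1, 10.5 and 20.5 CPM, and D730003I15Rik was at 12.2, 0.76, 9.98 and 0 CPM.

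Other members at the ends of the culture comparisons had mixed patterns. Gm16973 was at 49.9, 19.5, 22.8 and 68.3 CPM, and Gm20342 at 33.4, 12.3, 10.3 and 33.9 CPM. Both were low with either agent alone and not with both. A530013C23Rik, 759 bases from Cebpb, a transcription factor of macrophages, was at 31.7, 14.6, 18.4 and 44.0 CPM, while Cebpb was at 101, 138, 220 and 105 CPM. 5031425E22Rik was at 50.6, 46.4, 25.3 and 76.7 CPM, low with the inhibitor alone. Gm20707 was at 18.4, 7.82, 0.07 and 0 CPM, 1700001L05Rik at 22.8, 9.37, 0.21 and 6.67 CPM and C030034L19Rik at 4.61, 17.1, 9.85 and 1.68 CPM. Gm46224 was at 11.9, 2.24, 5.86 and 8.29 CPM, Gm29340 at 0.38, 1.55, 7.96 and 13.2 CPM, Gm10076 at 14.6, 38.5, 20.7 and 1.37 CPM and Gm44751 at 7.80, 0.38, 15.6 and 0.06 CPM.

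**Figure D5:**
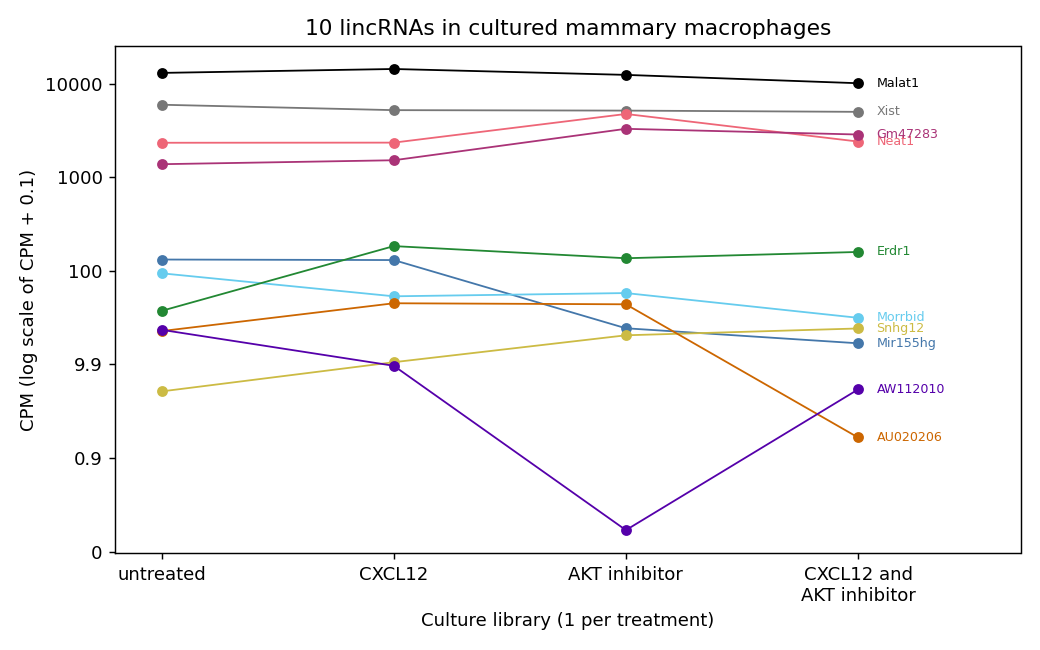
CPM of 10 members (y axis, log scale of CPM + 0.1) in the 4 culture libraries (x axis), 1 library a point. Mir155hg is at 132 and 130.2 CPM without the AKT inhibitor and 24.2 and 16.7 CPM with it, Neat1 is highest with the inhibitor alone at 4733 CPM, and Malat1 and Xist stay near level.

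Levels in fresh and cultured macrophages were also set side by side. The tables were normalized separately and annotated differently, so this is a description with no test. The culture median was under 0.1 times that of the 8 knockout-experiment libraries for 9 of 60 members, beside 5.29% of the 8945 genes that met the 5 CPM rule, and over 3 times it for 10, beside 9.50%. Gm37168, among the 10, was under 1 CPM on both sides. Gm7292 had medians of 0.30 CPM in culture and 87.0 CPM fresh, and Gm42031 of 0.70 and 30.0 CPM. On the other side Mir155hg had 77.2 CPM in culture and 9.74 CPM fresh, Morrbid 55.5 and 11.8 CPM, Gm47283 2186 and 335 CPM, and Gm20186 94.6 and 14.95 CPM. The 6 endothelial markers summed to 1683 to 2266 CPM in culture, with Cdh5 at 678 to 869 CPM, and to 5.24 to 178 CPM in the knockout experiments. The adipocyte markers listed summed to 338 to 423 CPM in culture, where Fabp4 held 314 CPM or more, and 0.64 to 126 CPM fresh. The part of these cells in the culture levels was not tested.

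Promoters of 4 members that the results turn on are shown, each from 250 bases before to 50 after a RefSeq start (GRCm38.p6), 5′ to 3′ on the gene's strand. They are the steadiest member, Gm36161, Mir155hg, 1 of the 3 members lower with the AKT inhibitor in both pairs, and Morrbid and D730003I15Rik, whose windows hold TGANTCA, the site of AP-1 factors. Capitals mark that motif, searched on both strands, where it reads the same.
Gm36161 (chr13:120010092-120010391, + strand): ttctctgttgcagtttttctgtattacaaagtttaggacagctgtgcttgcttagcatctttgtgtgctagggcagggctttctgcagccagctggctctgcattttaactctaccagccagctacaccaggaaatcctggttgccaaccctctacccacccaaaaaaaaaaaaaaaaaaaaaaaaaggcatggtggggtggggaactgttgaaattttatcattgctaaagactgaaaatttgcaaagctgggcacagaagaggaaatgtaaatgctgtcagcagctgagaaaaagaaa
Mir155hg (chr16:84712773-84713072, + strand): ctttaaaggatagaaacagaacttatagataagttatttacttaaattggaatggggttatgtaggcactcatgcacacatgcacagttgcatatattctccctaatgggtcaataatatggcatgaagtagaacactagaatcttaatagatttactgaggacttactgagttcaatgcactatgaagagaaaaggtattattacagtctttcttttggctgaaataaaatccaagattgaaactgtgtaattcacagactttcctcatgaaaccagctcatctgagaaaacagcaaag
Morrbid (chr2:128429302-128429601, - strand): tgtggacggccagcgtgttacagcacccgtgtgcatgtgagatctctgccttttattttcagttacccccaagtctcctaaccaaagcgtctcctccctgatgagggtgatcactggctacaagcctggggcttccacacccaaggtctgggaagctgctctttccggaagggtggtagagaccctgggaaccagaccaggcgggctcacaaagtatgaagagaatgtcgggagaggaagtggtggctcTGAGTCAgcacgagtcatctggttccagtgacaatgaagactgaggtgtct
D730003I15Rik (chr1:191224204-191224503, + strand): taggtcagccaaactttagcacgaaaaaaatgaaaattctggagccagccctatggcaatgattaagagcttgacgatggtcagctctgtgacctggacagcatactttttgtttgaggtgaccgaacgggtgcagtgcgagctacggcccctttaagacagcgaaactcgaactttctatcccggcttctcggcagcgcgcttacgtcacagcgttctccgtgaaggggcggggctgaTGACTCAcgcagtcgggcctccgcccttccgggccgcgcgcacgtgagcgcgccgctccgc
RefSeq promoters were found for 34 of 65 members, with 42 entries. TGANTCA was in 5 of these 42, and in 7.81% of all 32817 promoters. GTAAACA, a site of FOXO factors, was in 0 of 42 and in 3.65% of all. The third motif searched, a wide form of the NF-kappa B site, was in 20 of 42 and in 50.8% of all. The Mir155hg window held none of the 3. A match is a description of letters and no sign of binding. GENCODE M21 starts Mir155hg further upstream than the RefSeq entry, at chr16:84703167, so the window printed lies inside that gene. The motifs were chosen after the values were seen.

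P4 basal cells, which are not macrophages, gave a point of comparison in FPKM, a read density scaled by transcript length and library size, with 1 library per genotype and unknown depth. Only 28 members were found by name, 15 of them with at least 1 FPKM in both libraries and 6 listed at 0 in both. Malat1 was at 512 FPKM in the control and 1922 FPKM in the Cxcl12 knockout, Neat1 at 15.5 and 143, Xist at 211 and 506, and Mir17hg at 4.05 and 20.1. All 4 were higher in the knockout library. On the other side, Snhg12 was at 7.79 and 0.85 FPKM and 1700096K18Rik at 1.01 and 0.04 FPKM. Smaller falls were those of 2900097C17Rik, at 166 and 120 FPKM, and Gm20186, at 16.7 and 15.5 FPKM. These are examples, and the members higher or lower in the knockout library were not counted. AU020206 was at 1.503 and 2.30 FPKM and AW112010 at 0.77 and 1.66 FPKM.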

How the data were processed

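Values came from 15 macrophage libraries and 2 of P4 basal cells. The authors deposited log2 values for macrophages, read from the values as log2(CPM + 0.0001), and FPKM for P4 cells. Per the submitters' processing notes, the tools were STAR 2.7.8a and Partek and the build hg38, yet the tables hold mouse gene names and positions. How reads were counted is not given in the sources used here. Between 74.8% and 90.4% of values up to 50 reads were whole multiples of 1 read (tolerance 0.05 reads), which gave the depths. The rest were fractional, so no count test was run.

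For the knockouts, log2(CPM + 1) values of 8 libraries, a scale that understates changes of low genes, went into limma 3.58.1 (R 4.3.3) with 4 group means and a mean-variance trend. The prior spread, shared by genes of like level, had 97.3 degrees of freedom beside 4 residual ones. The SE of a gene is therefore mostly that shared spread. Genes needed 1 CPM or more in 2 libraries. Tests were two-sided, with Benjamini-Hochberg adjustment over all genes and a threshold of 0.05. The fit was tested on simulated data. Culture ratios used a prior of 2 reads, 0.0993 CPM, and a call needed over 2-fold and 10 CPM in the higher library. Ratios used pandas 2.3.3 and numpy 2.4.6.

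Members and lists were chosen with earlier results of these data known. Named members were the listed lincRNAs with established symbols, the 10 highest in the CXCR4-positive libraries, the 5 highest and 5 lowest in each comparison, those alike in all 4 repeat-wise differences, and the 3 on each side of the threshold. Others were chosen after their values were seen. Alternatives were other pseudocounts, filters, scalings and call levels, a replicate block, and each knockout library left out. Coordinates are GRCm38, and none are given for the culture and P4 tables.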

Additional observations from a re-analysis of the deposited data

How the results depend on the processing

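The members passing in the Cxcr4 knockout numbered 0, and 0 to 1 with a library left out; in the Cxcl12 knockout 0 throughout; and for the difference 0, and 0 to 1. Those passing were Gm7292 (without LysM-Cre control 1 or Cxcr4 knockout 2) and Gm21860 (without LysM-Cre control 2); in the difference it was Gm7292 without Cxcr4 knockout 2. In each of those fits more genes passed in all than with every library kept, so the passing is not particular to these members. A group left with 1 library is assumed to vary like the others. With 1 library left out the log2 changes ranged, for the Cxcr4 knockout, from -6.93 to 0.72 for Gm7292, from -5.14 to 0.62 for Gm14221 and from -3.79 to 0.24 for 9330175E14Rik; for the Cxcl12 knockout, from -2.23 to 0.44 for Gm49662, and the median of members ranged from -0.095 to 1.55. In the same Cxcl12 fits the median over all genes ranged from 0.03 to 0.92. Quantile normalization moved the median of members to 0.26, beside 0.02 over all genes. Genes passing in the Cxcr4 knockout, 1 in all, were 8 with no filter, 0 with no trend, and up to 150 with LysM-Cre control 2 left out. In the Cxcl12 knockout they were 0, and 151 without K8-Cre control 2. In the difference, also 1, they were 2 with no filter, 0 with no trend and 30 without LysM-Cre control 2. In culture, a minimum of 5 CPM gave 8 of 44 members higher with CXCL12 on top of the inhibitor (beside 20.5% of all genes). With the minimum of 10 CPM it was 5 of 34 (beside 21.4%). The cause of these changes was not tested.

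Numbered repeats were compared as pairs because the labels give the same numbers. The correlations of deviations from group means over all genes were 0.06 to 0.14, and over the members -0.16 to 0.18. Over all genes only that between the LysM-Cre controls and the Cxcr4 knockouts was above 0.1. That was the level set for treating same-numbered libraries as pairs, so the main fit did not pair them. The numbers do go with a library property, the small noncoding RNA share, so differences within each repeat are given in the report. With the replicate block, 0 members passed in each of the 3 contrasts and 1 gene passed in the Cxcl12 knockout. Depth limits the lowest members: 3 reads stood for 0.349 CPM in K8-Cre control 1 and 0.0806 CPM in K8-Cre control 2.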
